A study of Drosophila melanogaster with 4 samples.

Results

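Tumorous wing discs, the epithelial primordia of the fly wing, were compared between day 5 and day 4 after egg laying (AEL) in *Drosophila melanogaster* larvae homozygous for a mutation of *scrib*, an apicobasal polarity gene. All 6457 cells of the day 5 library were set against all 3785 cells of the day 4 library, together 10242 of the 14456 cells profiled on days 4, 5, 8 and 14. Larvae of both groups were *scrib*-/- *FRT82B* from the parental strain *scrib*[1]*FRT82B*/*TM6B*, grew at 25 °C at about 50 embryos a vial from egg collections of 3 h, and gave discs that were dissociated with trypsin at 37 °C for 10 min. The cells were profiled by the 10x method, which counts the captured RNA molecules by their unique molecular identifiers (UMIs). Neither library held control discs, and the labels state neither the sex nor the number of the animals.

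The polarity proteins Scrib, Dlg and Lgl keep disc cells in a single epithelial layer, and discs without Scrib overgrow into disorganized tumors during an extended larval life. At both ages compared here, however, the paper found the mutant discs smaller than control discs, and it describes early tumors as growth arrested. JNK signaling is active in such discs. The paper reports that its control larvae turned into pupae at the later of the ages compared here. Both ages are early in the study's series, and the comparison asks which genes differ between these ages.

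Each age was 1 library, so age and preparation cannot be told apart in any value below, and no test between the ages was possible. The day 5 library held 134888985 UMIs with a median of 19258 UMIs and 2780 genes per cell, and the day 4 library held 91045765 UMIs with a median of 23326 UMIs and 3034 genes per cell. The libraries shared 34 cell barcodes. Ribosomal protein genes took 48.2% of UMIs on day 5 and 49.1% on day 4. The level of a gene is its mean over cells of UMIs per 10000 UMIs of the cell, and a change is the log2 ratio of these means, day 5 over day 4. A counting half-width at 95% follows some ratios. It covers counting error only, not the spread between animals, discs or preparations.

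The transcriptomes of the 2 ages were close. Of 8220 genes listed in both files, 3498 averaged at least 0.2 per 10000 over the 2 libraries, and the median log2 ratio of these was 0.02, with 88.1% of them within 0.2 of 0 and with the 5th and 95th percentiles at -0.20 and 0.23. The ratio was above 0 for 57.6% of these genes and below 0 for 42.4%. A gene was said to rise or fall when its means differed at least 1.5-fold. By that rule 24 genes rose on day 5 (0.686%) and 9 fell (0.257%), 33 in all (0.943%). At 2-fold, 5 genes rose (0.143%) and 2 fell (0.0572%). For day 8 over day 5 the same 1.5-fold rule gave 270 of 3624 genes (7.45%), of which 214 rose (5.91%) and 56 fell (1.55%). For day 14 over day 8 it gave 722 of 4013 (18%), of which 686 rose (17.1%) and 36 fell (0.897%). A further 399 genes were listed in the day 5 file only and 54 in the day 4 file only, none with a mean above 0.0212 per 10000.

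**Figure D1:**
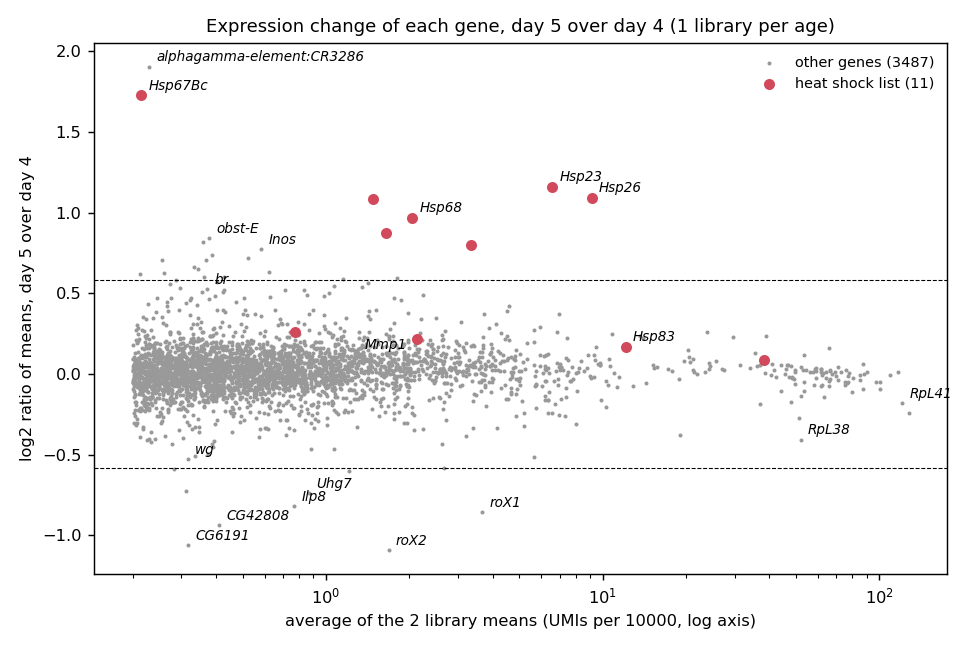
Each point is 1 of the 3498 genes, placed by the average of its means on day 5 and day 4 (UMIs per 10000, log axis) and by its log2 ratio, day 5 over day 4, with the 11 measured heat shock genes in red and dashed lines at 1.5-fold. Most genes lie close to 0, and 7 of the 11 heat shock genes lie above the upper line.

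The heat shock genes gave the clearest group among the rises. Heat shock proteins are chaperones that bind unfolded proteins, and the factor Hsf induces their genes under heat and other stress. Of 20 symbols in the list, 15 were listed in both files and 11 passed the minimum. Of these 11, 7 rose on day 5 and none fell, against 0.686% and 0.257% of all genes, and the median log2 ratio was 0.88, against 0.02 over all genes. All 11 ratios were above 0 (57.6% over all genes), also in each of 9 alternative ways of computing them.

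The small chaperones *Hsp23*, *Hsp26*, *Hsp27* and *Hsp67Bc* all rose. *Hsp26* averaged 12.4 per 10000 on day 5 and 5.83 on day 4 (log2 ratio 1.09, half-width 0.02). *Hsp23* averaged 9.10 on day 5 and 4.07 on day 4 (log2 ratio 1.16), and *Hsp27* 4.23 on day 5 and 2.43 on day 4 (0.80). *Hsp67Bc* averaged 0.330 on day 5 and 0.0998 on day 4 (1.73, half-width 0.12), and passed the minimum only through its level on day 5. These 4 genes are neighbors, lying within 14.2 kb of chromosome 3L, 9371511 to 9385694, in the Ensembl annotation of BDGP6. For the counts themselves the sources used here name no build. *Hsp27* overlaps an annotated gene on the other strand, and the use of strand in counting is not stated either.

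The larger chaperones rose as well. *Hsp68* averaged 2.72 per 10000 on day 5 and 1.39 on day 4 (log2 ratio 0.97), and *DnaJ-1*, which encodes a co-chaperone of the Hsp70 proteins, 2.12 on day 5 and 1.16 on day 4 (0.88). *Hsp70Bc* averaged 2.02 on day 5 and 0.949 on day 4 (1.09). Its value is uncertain, because the *Hsp70* copies are nearly identical and reads could be split among them. Below the minimum, *Hsp70Ab* averaged 0.0582 on day 5 and 0.0224 on day 4, and *Hsp70Aa* 0.111 on day 5 and 0.0832 on day 4.

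A pair of noncoding transcripts outside the list showed the same direction. *alphagamma-element:CR3286*, whose symbol has no match in the annotation, averaged 0.362 per 10000 on day 5 and 0.0967 on day 4 (log2 ratio 1.90), and it too passed the minimum only through day 5. *Hsromega*, a heat-inducible noncoding RNA named here after its value was seen, averaged 2.17 on day 5 and 1.44 on day 4 (0.60), just past the fold. Constitutive chaperones stayed within the fold. *Hsp83* averaged 12.8 on day 5 and 11.4 on day 4 (0.17), *Hsc70-3* had a ratio of 0.22 and *Hsc70-4* of 0.08. *Hsf* itself averaged 0.148 on day 5 and 0.138 on day 4.

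Single cells showed the difference over the whole range of levels. The 7 heat shock genes that rose were summed in each cell, as a description of genes chosen by their ratio. The sum had a median of 28.7 UMIs per 10000 on day 5 and 11.6 on day 4, a 10th percentile of 6.17 on day 5 and 1.71 on day 4, and a 90th percentile of 61.7 on day 5 and 36.0 on day 4. Of the day 5 cells, 81.0% lay above the day 4 median and 36.8% above the day 4 90th percentile. The highest cell had 1814 on day 5 and 248 on day 4. Within a library the 7 genes varied together across cells, with a median Pearson correlation over their 21 pairs of 0.53 on day 5 and 0.47 on day 4. The highest was that of *Hsp23* with *Hsp26*, 0.80 on day 5 and 0.77 on day 4. The pairs with *Hsp67Bc* were the lowest, at most 0.27 on day 5 and 0.26 on day 4, so this gene varied only weakly with the others. These are correlations across cells that share 1 library and its depth.

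In these libraries the difference was larger in female than in male cells. Flies express the dosage compensation RNAs *roX1* and *roX2* in males, so cells with at least 4 per 10000 of the 2 together were taken as male and cells under 2 as female. The 4842 female cells of day 5 had a median sum of 30.3 and the 2266 female cells of day 4 one of 10.2. The 1590 male cells of day 5 had a median sum of 24.8 and the 1507 male cells of day 4 one of 13.9. The log2 ratio of medians was 1.57 in female cells and 0.84 in male cells. On day 5 the female cells were above the male cells, and on day 4 they were below them. In male cells *Hsp26* (0.72), *Hsp23* (0.74), *Hsp68* (0.60) and *Hsp67Bc* (0.85) passed the fold, whereas *Hsp27* (0.40), *DnaJ-1* (0.50) and *Hsp70Bc* (0.45) did not. With 1 library per age the difference between the sexes could not be tested.

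**Figure D2:**
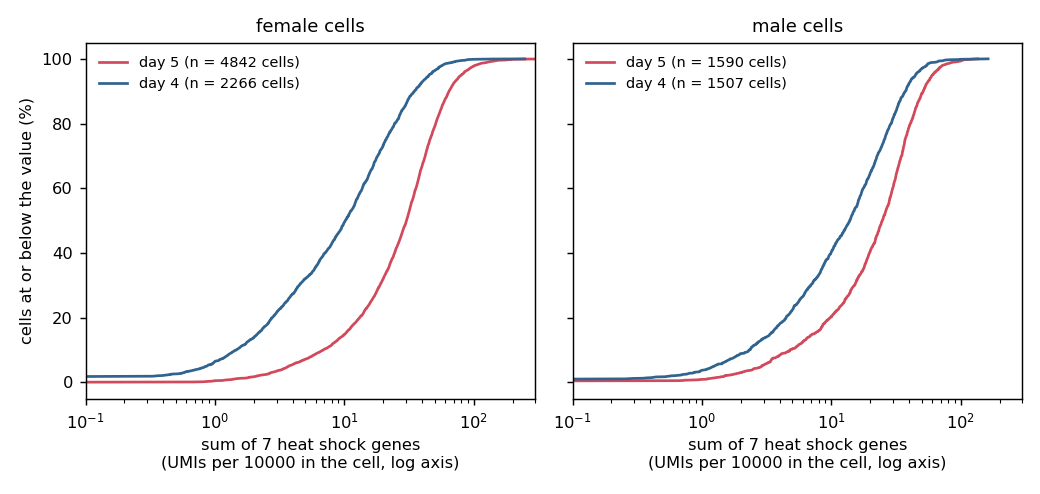
The curves give the share of cells (%) at or below each summed level of the 7 heat shock genes (UMIs per 10000 in the cell, log axis cut at 300, with sums under 0.1 drawn at 0.1), for day 5 in red and day 4 in blue. The day 5 curve lies to the right of the day 4 curve in female cells (left) and, by less, in male cells (right).

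The sum did not move one way with age. Over days 4, 5, 8 and 14 its mean was 15.9, 32.9, 17.4 and 66.1. *Hsp26* had means of 5.83, 12.4, 6.59 and 29.2 per 10000 at these ages, and *Hsp70Bc* 0.949, 2.02, 0.360 and 3.13, with day 8 its lowest. The stated dissociation was at 37 °C, and its part in these values was not tested. Whether handling was equal across the libraries is not known.

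The rises outside the heat shock genes and their noncoding transcripts had ratios of at most 0.84 and included secreted and cuticle proteins. *obst-E* and *obst-B*, which encode chitin-binding proteins of the cuticle, were 2 of the 11 chitin and cuticle genes that passed the minimum. They alone of these 11 rose and none fell, against 0.686% and 0.257% of all genes. The median of the 11 was 0.02, as over all genes. *obst-E* averaged 0.486 per 10000 on day 5 and 0.271 on day 4 (log2 ratio 0.84, half-width 0.08). *obst-B* averaged 0.516 on day 5 and 0.340 on day 4 (0.60). *Gasp*, a further chitin-binding protein, averaged 5.13 on day 5 and 3.92 on day 4 (0.39), within the fold. *obst-B* was higher again at the later ages (1.41 on day 8 and 2.36 on day 14), whereas *obst-E* was not (0.409 and 0.203).

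Other rises were enzymes, a channel and genes of little known role. *Inos*, the inositol-3-phosphate synthase gene, averaged 0.736 per 10000 on day 5 and 0.431 on day 4 (log2 ratio 0.77). *Drip*, which encodes a water channel, averaged 0.484 on day 5 and 0.291 on day 4 (0.74), and *Arc1*, a capsid-forming Arc homolog, 0.458 on day 5 and 0.281 on day 4 (0.71). The 10% of cells with most *Drip* held 97.5% of its signal on day 5 and 100% on day 4, so its mean rests on few cells. For *Arc1* that share of the signal was 94.0% on day 5 and 97.3% on day 4. *CG17278* (annotated as *peg*) averaged 0.649 on day 5 and 0.394 on day 4 (0.72), with a ratio of 0.85 in female cells and 0.18 in male cells. At 10000 UMIs per cell, 13.1% of day 5 cells and 14.2% of day 4 cells had a *CG17278* UMI, so its share of cells did not rise. Its top 10% of cells held 93.4% of the signal on day 5 and 87.1% on day 4. *CG14598* (0.82) and *CG3777* (0.71) completed the 15 highest ratios. *CG3777* averaged 0.317 on day 5 and 0.194 on day 4, and so passed the minimum only through its level on day 5. The remaining rises, named here outside the rule for named genes, were *CG9331* (0.66), *bnb* (0.65), *noe* (0.63), the fructose-bisphosphatase gene *fbp* (0.63), *CG31673* (0.62), *CG12911* (0.60) and *CG17919* (0.59).

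**Figure D3:**
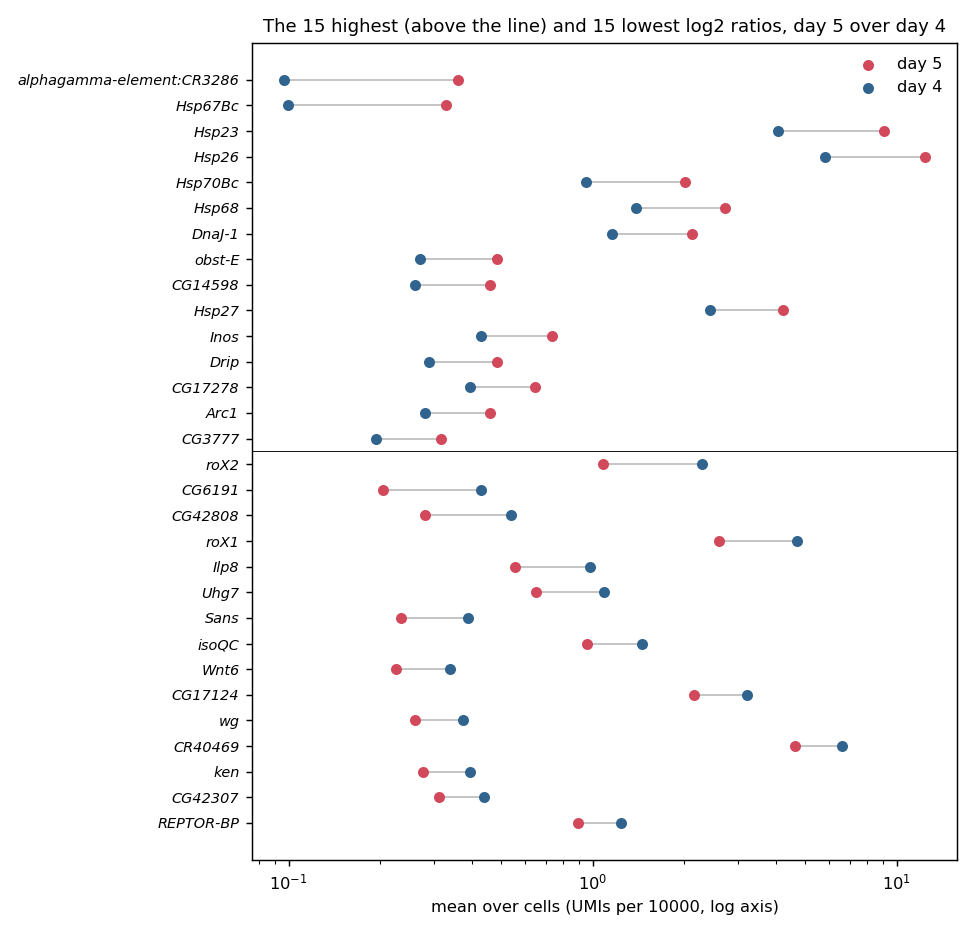
Means over cells (UMIs per 10000, log axis) on day 5 (red) and day 4 (blue) of the genes with the 15 highest log2 ratios, above the line, and the 15 lowest, below it, in order of the ratio. *Hsp26* stands at 12.4 on day 5 and 5.83 on day 4, and *roX1* at 2.60 on day 5 and 4.72 on day 4.

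The fold limit itself is a point on a continuum. Just inside it were *Wnt6* (-0.59), *CG17919* (0.59) and *Hsromega* (0.60), and just outside it *CG17124* (-0.58), *NijA* (0.58) and *MP1* (0.57).

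Among the 9 falls were the relaxin-like hormone *Ilp8* and the Wnt ligand *Wnt6*. Ilp8 is secreted by damaged or overgrown discs and delays metamorphosis. *Ilp8* (3L, 17029812 to 17032080) averaged 0.557 per 10000 on day 5 and 0.981 on day 4 (log2 ratio -0.82, half-width 0.04). With each cell thinned to 10000 UMIs, 11.1% of day 5 cells and 17.2% of day 4 cells had an *Ilp8* UMI, and the mean in those cells was 5.26 on day 5 and 5.99 on day 4. Cells carrying at least 3 of 7 myoblast markers, which are not epithelial, gave shares of 1.44% on day 5 (median 16768 UMIs) and 3.47% on day 4 (median 17589 UMIs), below the shares of all cells. The 10% of cells with most *Ilp8* held 95.6% of its signal on day 5 and 91.6% on day 4. The gene overlaps annotated transcripts on both strands. At the later ages its mean was 0.975 on day 8 and 3.33 on day 14, so day 5 was the lowest of the 4.

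The JAK/STAT ligands, which damaged discs also secrete, were expressed at a lower level and showed the same direction as *Ilp8*. These ligands and the genes of this paragraph below the minimum of 0.2 are named outside the rule for named genes. Between 0.05 and 0.2 per 10000, 43 of 2410 genes rose (1.78%) and 19 fell (0.788%). *upd1* averaged 0.135 on day 5 and 0.219 on day 4 (log2 ratio -0.70, half-width 0.09), *upd3* 0.0563 on day 5 and 0.0876 on day 4 (-0.64), and *upd2* 0.0538 on day 5 and 0.0621 on day 4 (-0.21). The transcription factor gene *Ets21C*, a target of JNK signaling, averaged 0.0959 on day 5 and 0.146 on day 4 (-0.61). Across cells the correlation of *Ilp8* with *upd1* was 0.50 on day 5 and 0.55 on day 4, and that with *Ets21C* 0.50 on day 5 and 0.54 on day 4. Of the JAK/STAT list, none of the 6 members past the minimum passed the fold. All 6 ratios were below 0 (42.4% over all genes) and the median was -0.14. *Socs36E*, a feedback inhibitor and target of the pathway, averaged 0.675 on day 5 and 0.860 on day 4 (-0.35), the receptor gene *dome* 0.351 on day 5 and 0.393 on day 4 (-0.16), and *Stat92E* 0.380 on day 5 and 0.422 on day 4 (-0.15).

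The Wnt ligands *wg* and *Wnt6*, which pattern the disc, lie within 45.4 kb of each other on chromosome 2L. *Wnt6* averaged 0.225 per 10000 on day 5 and 0.339 on day 4 (log2 ratio -0.59) and fell, and *wg* averaged 0.260 on day 5 and 0.375 on day 4 (-0.53), within the fold. At 10000 UMIs per cell, 13.4% of day 5 cells and 19.5% of day 4 cells had a *wg* UMI. Among cells with at least 3 myoblast markers the *wg* share was 1.44% on day 5 and 2.78% on day 4. Across cells *wg* and *Wnt6* correlated at 0.68 on day 5 and 0.71 on day 4. The Wnt feedback inhibitor *Notum* had a ratio of -0.40, while the receptor gene *fz2*, which Wg signaling represses in the wing disc, averaged 1.14 on day 5 and 0.820 on day 4 (0.48). Of the 11 Wnt genes past the minimum, *Wnt6* alone passed the fold, and the list median was 0.08.

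The remaining falls were genes of varied kinds. *CG6191* averaged 0.205 per 10000 on day 5 and 0.428 on day 4 (log2 ratio -1.06), and *CG42808* 0.282 on day 5 and 0.540 on day 4 (-0.94). These genes are neighbors of *CG42807*, and the 3 lie within 22.7 kb of chromosome 2R, 13570595 to 13593339, in the annotation. *CG42807*, below the minimum and named after its value was seen, averaged 0.0488 on day 5 and 0.0896 on day 4 (-0.88). *Uhg7*, a noncoding snoRNA host gene that overlaps *RpL23A*, averaged 0.653 on day 5 and 1.09 on day 4 (-0.74), *Sans* had a ratio of -0.72, and *isoQC*, a glutaminyl cyclase gene, averaged 0.959 on day 5 and 1.46 on day 4 (-0.60). *CG17124*, which correlated with *Mmp1* across cells at 0.74 on day 5 and 0.72 on day 4, averaged 2.15 on day 5 and 3.22 on day 4 (-0.58), just within the fold. The noncoding RNA *CR40469* (4.63 on day 5, 6.62 on day 4, -0.51), *ken* (-0.51), *CG42307* (-0.50) and *REPTOR-BP* (-0.47) had the next lowest ratios after *wg*.

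**Figure D4:**
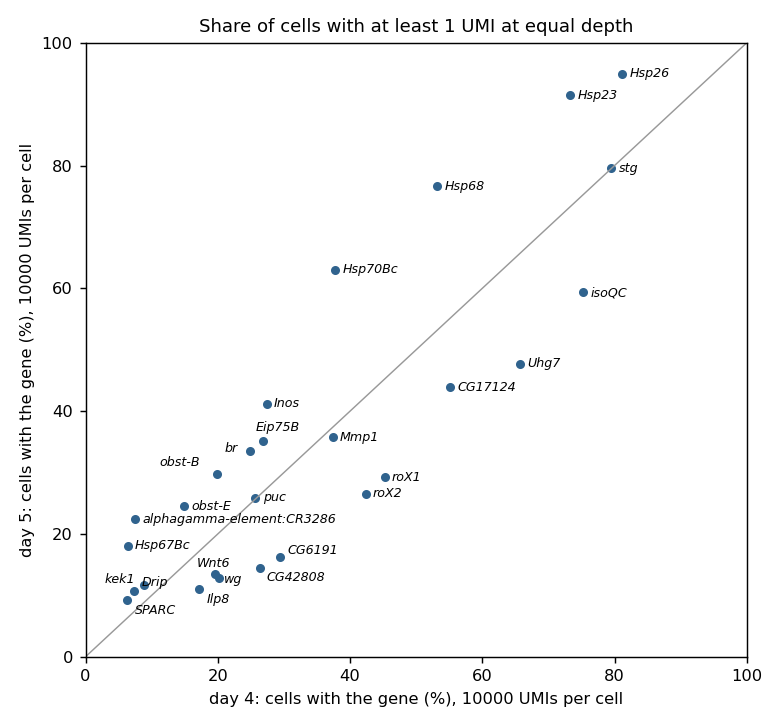
Share of cells (%) with at least 1 UMI of each of 27 genes, day 5 on the vertical and day 4 on the horizontal axis, after each cell was thinned to 10000 UMIs. Points above the line had the larger share on day 5, such as *Hsp70Bc* (63.0% on day 5, 37.8% on day 4), and points below it the smaller, such as *isoQC* (59.3% on day 5, 75.3% on day 4).

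The dosage compensation RNAs differed with the sex of the cells. *roX1* averaged 2.60 per 10000 on day 5 and 4.72 on day 4 (log2 ratio -0.86), and *roX2* 1.08 on day 5 and 2.30 on day 4 (-1.09). Male cells were 24.6% of the day 5 library (exact binomial interval 23.6% to 25.7%) and 39.8% of the day 4 library (38.3% to 41.4%), with 25 cells on day 5 and 12 on day 4 between the limits. The sexes were defined by these RNAs, so their ratios within a sex (in male cells -0.17 for *roX1* and -0.41 for *roX2*) are bound by the limits and are no check. The make-up by sex moves with the comparison of all cells, and its part in the other results was not tested. Of the 24 rises, 21 were among the 21 genes past the fold in female cells and 12 among the 14 in male cells. Besides *Hsp27*, *DnaJ-1* and *Hsp70Bc*, the rises within the fold in male cells were *CG3777* (0.57), *obst-B* (0.52), *CG14598* (0.48), *CG9331* (0.45), *Hsromega* (0.40), *CG31673* (0.36), *Drip* (0.30), *CG17278* (0.18) and *CG12911*. The ratio of *CG12911* was 1.13 in female cells and -0.17 in male cells, the opposite direction. In female cells *obst-B* (0.55), *fbp* (0.55) and *CG17919* (0.53) were within the fold. Of the 9 falls, 8 were among the 9 in female cells and 7 among the 8 in male cells. The 8 in female cells include *roX1* and *roX2*, which are no check for the reason above. *Wnt6* (-0.51) was within the fold in female cells.

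The mutated gene and the JNK reporters that the study used stayed within the fold. *scrib* averaged 0.207 per 10000 on day 5 and 0.194 on day 4 (log2 ratio 0.09, half-width 0.09), and what the allele does to the transcript is not in the labels. *Mmp1*, a matrix metalloproteinase gene, averaged 1.35 on day 5 and 1.24 on day 4 (0.12), and 35.8% of day 5 cells and 37.4% of day 4 cells had a UMI at 10000 UMIs per cell. When log values were averaged its ratio was -0.01. *puc*, the JNK phosphatase gene, averaged 0.397 on day 5 and 0.421 on day 4 (-0.08). Of the 12 JNK and AP-1 genes past the minimum *Ilp8* fell and none rose, and the list median was 0.07. *Atf3* had a ratio of 0.26 and *scaf* of 0.27.

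The ERK target genes were higher on day 5, within the fold. *kek1* averaged 0.205 per 10000 on day 5 and 0.151 on day 4 (log2 ratio 0.44, half-width 0.11), with a ratio of 0.53 in female cells and 0.10 in male cells. *sty*, the Sprouty gene, averaged 0.392 on day 5 and 0.291 on day 4 (0.43). Without the cells that carried at least 3 myoblast markers, 5.76% of day 5 cells and 4.02% of day 4 cells, the ratio of *sty* was 0.28. *aos* averaged 0.0857 on day 5 and 0.0687 on day 4 (0.32, or 0.07 without those cells), and the ligand gene *vn* 0.0591 on day 5 and 0.0479 on day 4 (0.30). The ratio of *vn* was 0.49 in female cells and -0.17 in male cells. The receptor gene *Egfr* averaged 0.655 on day 5 and 0.544 on day 4 (0.27), and the ligand gene *spi* 0.993 on day 5 and 1.12 on day 4 (-0.17). None of the 10 EGFR/ERK genes past the minimum passed the fold, and their median was 0.08. For scale, *kek1* averaged 0.788 on day 8 and 2.80 on day 14.

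Cell cycle genes differed little. Of 23 G2/M genes past the minimum none passed the fold, 19 ratios were below 0 (42.4% over all genes) and the median was -0.06, with *pim* (securin) at -0.24 and *Klp61F* (a mitotic kinesin) at -0.18. *stg*, the Cdc25 phosphatase that drives entry into mitosis, averaged 3.50 per 10000 on day 5 and 3.38 on day 4 (log2 ratio 0.05), and 79.6% of day 5 cells and 79.5% of day 4 cells had a UMI at equal depth. *Cks30A* had a ratio of -0.07. Of 16 S phase genes none passed the fold, and the median was 0.03. Of 8 cell death genes none passed it, 4 ratios were above 0 and 4 below, and the median was 0.01. The proapoptotic genes *hid* (0.510 on day 5, 0.646 on day 4, -0.34) and *rpr* (0.793 on day 5, 0.921 on day 4, -0.22) had ratios below 0. *Xrp1* of the same list had one above 0 (1.89 on day 5, 1.60 on day 4, 0.24).

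Genes induced by ecdysone, the steroid that times molting and metamorphosis, had some ratios near the fold. *br*, a zinc finger factor of the ecdysone response, averaged 0.440 per 10000 on day 5 and 0.305 on day 4 (log2 ratio 0.53, half-width 0.07), and had 1.31 on day 8 and 2.92 on day 14. Its ratio was 0.52 in female cells and 0.17 in male cells. The nuclear receptor gene *Eip75B* averaged 0.499 on day 5 and 0.350 on day 4 (0.51), then 0.979 on day 8 and 1.99 on day 14. *br* overlaps an annotated gene on the other strand. *Eip71CD* had a ratio of 0.36 and the receptor gene *EcR* of 0.10. None of the 13 genes of the list past the minimum passed the fold, and their median was 0.10.

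Glycolytic enzymes shared a direction, with small ratios. Of 11 genes past the minimum none passed the fold. In the main comparison 10 ratios were above 0 (57.6% over all genes), as in each of the 9 alternatives. The median was 0.24, against 0.02 over all genes. *Tpi* averaged 0.506 per 10000 on day 5 and 0.352 on day 4 (log2 ratio 0.52), *Gapdh2* 2.61 on day 5 and 1.86 on day 4 (0.49), and *Ald* 2.23 on day 5 and 1.72 on day 4 (0.38). The lactate dehydrogenase gene *ImpL3*, below the minimum and named outside the rule, averaged 0.111 on day 5 and 0.0544 on day 4 (1.03), then 2.19 on day 8 and 8.92 on day 14. The highest cell had 98.2 on day 5 and 18.0 on day 4. The 37 oxidative phosphorylation genes had a median of 0.02 and none passed the fold. The lowest ratios among them were those of *COX8* and *cype*, subunits of cytochrome c oxidase, with *COX8* at 6.32 on day 5 and 7.54 on day 4 (-0.26) and *cype* at 6.01 on day 5 and 7.11 on day 4 (-0.24).

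Genes of amino acid stress and of detoxification also had small ratios. Of 11 amino acid stress genes none passed the fold, 10 ratios were above 0 (57.6% over all genes) and the median was 0.21. *scyl*, a REDD homolog that restrains TOR, averaged 1.27 per 10000 on day 5 and 0.870 on day 4 (log2 ratio 0.54), and the amino acid transporter gene *mnd* 0.998 on day 5 and 0.710 on day 4 (0.49). *Sesn*, a sestrin gene below the minimum and named after its value was seen, had the opposite direction, 0.0670 on day 5 and 0.115 on day 4 (-0.78). Of 17 redox and detoxification genes none passed the fold and 16 ratios were above 0 (57.6% over all genes), or 13 when ribosomal proteins were left out of the total. The glutathione transferase genes *GstO3* (1.20 on day 5, 0.850 on day 4, 0.50) and *GstS1* (2.17 on day 5, 1.58 on day 4, 0.46) led them.

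Growth and ribosome genes were at similar levels with some exceptions of small size. *Myc* averaged 2.45 per 10000 on day 5 and 2.99 on day 4 (log2 ratio -0.29), *InR*, the insulin receptor gene, 0.542 on day 5 and 0.688 on day 4 (-0.34), and *foxo* 0.193 on day 5 and 0.245 on day 4 (-0.34). Of 82 cytosolic ribosomal protein genes none passed the fold and the median was -0.01, yet *RpL38* averaged 44.8 on day 5 and 59.4 on day 4 (-0.41, half-width 0.01), *RpL22* 16.5 on day 5 and 21.5 on day 4 (-0.38), and *RpL39* 46.6 on day 5 and 56.3 on day 4 (-0.27). Of 72 mitochondrial ribosomal protein genes none passed the fold and 53 ratios were below 0 (42.4% over all genes), with a median of -0.04. In male cells 33 of the 72 were above 0, against 19 in all cells. Their median in male cells was -0.02, against 0.02 over all genes. The largest difference in level of any gene was that of *MRE16* (annotated as *lncRNA:CR34335*), at 117 on day 5 and 138 on day 4 (-0.24). The largest difference upward was that of the actin gene *Act5C*, at 69.7 on day 5 and 62.4 on day 4 (0.16).

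**Figure D5:**
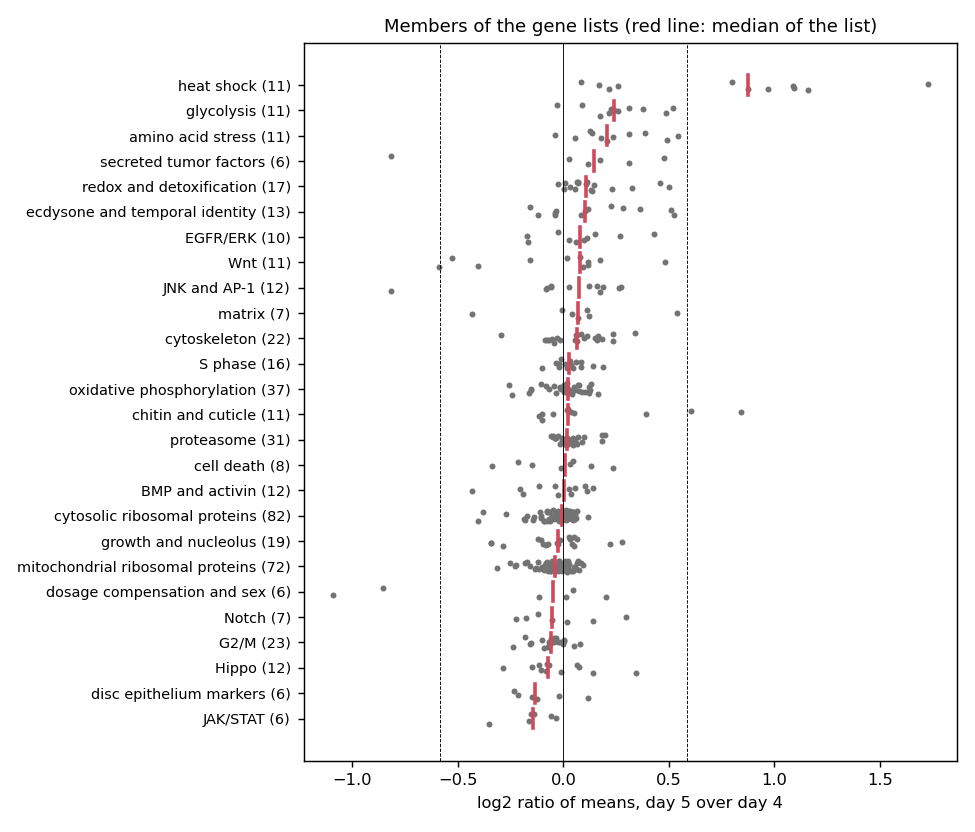
Each point is a member of a gene list that passed the minimum, placed by its log2 ratio, day 5 over day 4, with the list median as a red line, the number of members in parentheses and dashed lines at 1.5-fold. Lists with fewer than 6 such members are not drawn. The heat shock list has a median of 0.88, and the other medians drawn lie between -0.14 and 0.24.

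Patterning and matrix genes below the minimum held some of the larger ratios, and the genes of this paragraph below 0.2 were named after their values were seen. The 3 wing pouch genes past the minimum of 0.2 had ratios below 0 and within the fold, *vg* at -0.12, *sd* at -0.15 and *bi* at -0.19. Of 10 wing pouch genes that averaged at least 0.05 per 10000, 3 rose and none fell, against 1.13% and 0.474% of the 5908 genes at that minimum. These were *nub*, the POU factor of the pouch (0.111 on day 5, 0.0604 on day 4, log2 ratio 0.87), *Doc1* (0.10 on day 5, 0.0644 on day 4, 0.64) and *salr* (0.227 on day 5, 0.146 on day 4, 0.63). The ratio of *nub* was 1.25 in female cells and 0.25 in male cells. Among cells with at least 3 myoblast markers, 2.59% on day 5 and 1.39% on day 4 had a *nub* UMI at 10000 UMIs per cell, against 6.49% on day 5 and 3.73% on day 4 of cells with none. The Iroquois gene *caup* of the notum averaged 0.172 on day 5 and 0.0995 on day 4 (0.79).

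The FGF ligand genes *bnl* (0.10 on day 5, 0.0404 on day 4, log2 ratio 1.31) and *ths* (0.174 on day 5, 0.0916 on day 4, 0.93) rose, as did the POU factor gene *vvl* (0.213 on day 5, 0.0954 on day 4, 1.16). These genes averaged between 0.05 and 0.2 and were named after their values were seen, as were the falls that follow. The collagen XV/XVIII gene *Mp* averaged 0.0329 on day 5 and 0.0939 on day 4 (-1.51), the lysyl oxidase gene *lox2* 0.0374 on day 5 and 0.0879 on day 4 (-1.23), and the follistatin gene *Fs* 0.0452 on day 5 and 0.0925 on day 4 (-1.03). The Notch targets *E(spl)m4-BFM* (-0.78) and *E(spl)m8-HLH* (-0.63) fell too. They were the 2 past the fold among 13 Notch genes that averaged at least 0.05, against 0.474% of all genes falling at that minimum. Of these 13, 5 ratios were above 0 and 8 below, with a median of -0.05. None of the 7 Notch genes past 0.2 passed the fold. The ratio of *E(spl)m4-BFM* was -1.14 in female cells and -0.0037 in male cells. Among better expressed matrix genes, the glypican gene *dally* averaged 2.25 on day 5 and 3.03 on day 4 (-0.43). Of the 7 matrix genes past 0.2 none passed the fold, 5 ratios were above 0 (57.6% over all genes) and the median was 0.07.

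Markers of other cell types were examined for the make-up of the libraries. At 10000 UMIs per cell, 82.8% of day 5 cells (exact binomial interval 81.8% to 83.8%) and 87.2% of day 4 cells (86.1% to 88.3%) had at least 3 of 8 disc epithelium markers. At least 3 of 7 markers of myoblasts, the muscle precursors that adhere to the disc, were found in 4.61% of day 5 cells (4.09% to 5.17%) and 3.19% of day 4 cells (2.65% to 3.82%). Of cells without any other myoblast marker, 0.204% on day 5 (median 19544 UMIs) and 0.257% on day 4 (median 23553 UMIs) had a *twi* UMI. In cells with at least 3 of the others it was 78.6% on day 5 and 76.6% on day 4. The former cells were chosen for lacking the other markers, so their *twi* share cannot measure stray RNA. The matrix gene *SPARC* had a UMI in 3.49% of day 5 cells and 2.21% of day 4 cells with none of the 7 markers. Of 7 hemocyte markers 1 was listed in both files, and of 4 fat body markers none was. At least 3 of the tracheal markers were found in 0.658% of day 5 cells and 0.275% of day 4 cells. Of these markers, *serp* had a UMI at that depth in 81.9% of day 5 cells and 84.8% of day 4 cells, and *verm* in more at both ages. Most cells thus needed only 1 further marker to reach 3, so these shares are no measure of tracheal cells.

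The secreted matrix protein gene *SPARC* averaged 1.60 per 10000 on day 5 and 1.10 on day 4 (log2 ratio 0.54), and 9.30% of day 5 cells and 6.33% of day 4 cells had a UMI at 10000 UMIs per cell. Within cells with at least 3 myoblast markers it averaged 25.1 on day 5 and 24.5 on day 4, and in cells with none of these markers 0.0366 on day 5 and 0.0215 on day 4. Cells that carried at least 3 were 5.76% of the day 5 library and 4.02% of the day 4 library. Without them the ratio of *SPARC* was 0.49. Their level was far above that of all cells, so 0.49 describes only the signal left after they were taken out. The part of their share in the ratio over all cells was not tested. *Hsp26* averaged 23.4 on day 5 and 10.9 on day 4 in cells with at least 3 myoblast markers, and 11.6 on day 5 and 5.52 on day 4 in cells with none.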

How the data were processed

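The authors counted UMIs with Cell Ranger and normalized them with Seurat. The Cell Ranger version, the build and the cell filters were not stated in the sources used here. The authors deposited natural log values, ln of (1 + UMIs per 10000 of the cell). UMIs were recovered by division by the lowest value of the cell, and 100% of values then came out whole to within 0.001. No cell had 4000 genes or more, and columns were single cells. Doublets were not called.

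Means over cells, log2 ratios and shares were computed with python 3.11.15, numpy 2.4.6, scipy 1.17.1 and pandas 2.3.3, and figures with matplotlib 3.10.9. Counting half-widths came from a normal approximation and shares have exact Clopper-Pearson intervals, both at 95% and for counting error only. For equal depth each cell was thinned to 10000 UMIs, which left out 380 day 5 cells and 152 day 4 cells. The functions were tested on simulated data. With 1 library per age, no test was run and values are descriptions. Groups were taken from the age labels.

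Genes named were the 15 highest and 15 lowest log2 ratios, the 5 largest differences each way in mean and in thinned share, the 3 members of each list with the largest absolute ratio, and genes the study names. Others are said to be outside this rule. The members and gene lists were chosen with earlier results of these data known. Gene places are from the Ensembl BDGP6 annotation, in which 156 of 158 symbols matched. Alternatives changed the minimum, the fold, the scale, the scaling, the depth and the cells used.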

Additional observations from a re-analysis of the deposited data

How the results depend on the processing

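Of 24 rises and 9 falls, a minimum of 0.5 per 10000 left 11 rises and 5 falls, and a minimum of 0.05 gave 67 and 28. A fold of 2 left 5 rises and 2 falls. Averaging log values left 4 rises and 1 fall, since that scale compresses ratios of low genes. Male cells alone gave 14 rises, and other settings kept the counts within 1.5 times. Of 166 genes followed over 9 alternatives (1494 values), *CG12911* was the gene past the fold that changed direction (-0.17 in male cells, the cause was not tested), and 485 values moved by more than the counting half-width. The median of the heat shock list was 0.45 in male cells, 1.05 in female cells and 0.48 with log values averaged, against 0.88. No paired analysis was possible because each age had 1 library. Differences under the half-width were not detectable at this depth, and the spread between preparations is unknown.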
